A study of Rattus norvegicus with 10 samples.

Results

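Heat shock proteins and co-chaperones were examined in the left hippocampus of male transgenic rats. They were chosen by a rule on gene symbols, with earlier results of these data known. The rule took the HSP70, HSP110, HSP90, HSP60, HSP10 and small HSP genes and the DNAJA, DNAJB and DNAJC genes. It also took the subunits of the CCT chaperonin and the co-chaperones BAG, St13 and Hspbp1. The rule found 88 of the 17168 genes in the count table, and Hspg2 and Hspbap1 were left out of it. The rats were of the TgF-344AD line on a Fischer background, a model of Alzheimer's disease in which a prion promoter drives human transgenes for mutant amyloid precursor protein and presenilin. The 5 untreated rats ate rodent chow. The 5 ibudilast rats were given chow with ibudilast, a phosphodiesterase inhibitor, which began at 5 months of age and lasted 6 months. All 10 animals were taken at 11 months, all carried the transgenes, and no rats without them were part of the comparison. Only the ibudilast samples were stored in RNAlater-ICE, a tissue transition solution, so treatment and storage cannot be told apart in any result here.

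Molecular chaperones bind unfolded stretches of other proteins and help them to fold, to be refolded after stress or to be handed to degradation. HSP70 proteins do this in cycles of ATP hydrolysis that J-domain proteins, the DNAJ families, start and that nucleotide exchange factors such as HSP110 and BAG proteins end. HSP90 takes over partly folded kinases and receptors, and CCT and HSP60 are ring-shaped chambers, CCT for actin and tubulin in the cytosol and HSP60 for matrix proteins in mitochondria. Some members are always made, others are induced by heat shock factor 1 (HSF1), and a set in the endoplasmic reticulum is induced by the unfolded protein response. In neurons, Hspa8 and its J-domain partners also serve the synaptic vesicle cycle and uncoat clathrin.

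Each rat gave 1 library, of 14806807 to 18533520 counts. Levels are given as CPM, the count scaled to a common library size with TMM factors, and are not corrected for gene length. Neuronal and glial marker genes were detected in all 10 libraries, and 4 libraries stood apart. Markers of ependyma and choroid plexus, tissue that adjoins the hippocampus, summed to 8164 CPM in untreated replicate 2 and 7468 CPM in ibudilast replicate 1, against 51.9 to 416 CPM in the other 8. Untreated replicate 3 had the highest microglia (1333 CPM) and endothelial (791 CPM) marker sums and the lowest excitatory neuron sum of its group (6501 CPM), and ibudilast replicate 4 had the lowest excitatory neuron sum of all (2670 CPM). In tissue measured in bulk, fewer cells of a type and less RNA per cell cannot be told apart.

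Chaperone genes were lower more often than higher in the ibudilast rats. Of the 88 members, 78 passed the filter on low counts and were tested. By edgeR's quasi-likelihood test at an adjusted p under 0.05, 31 fell, where 22.8% of all 12355 tested genes fell, and 9 rose, where 24.3% of all tested genes rose. The other 38 did not pass. The share called in either direction, 51.3%, was near the 47.1% of all tested genes, while the share that fell, 39.7%, was above and the share that rose, 11.5%, below that of the whole table. The median log2 fold change (ibudilast over untreated) was −0.16 over the tested members and 0.02 over all tested genes. Of the 78 members, 4 were called with a log2 change of at least 1 in size (Hspa1a, Dnajc6, Bag4 and Dnajb4), as were 950 of all 12355 tested genes. The groups did not overlap for 33 of the 78 members, 26 lower and 7 higher, where 33.4% of all tested genes did not overlap, 15.4% lower and 18.0% higher.

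The count of falls moved with untreated replicate 3. That rat held the lowest value of its group for 50 of the 78 tested members, 64.1%, against 35.1% of all tested genes. Without it, 40 members fell and 11 rose. Without all 4 libraries that stood apart, 36 fell and 13 rose. Genes were filtered anew in each fit, so these counts are over the 88 members and may include some outside the 78. Calls over the whole table also changed between fits, and these counts are not set against the share of all genes in the same fit. The same limit holds for the family and list counts without untreated replicate 3 given below. Excitatory neuron markers summed to 6501 to 10550 CPM in untreated and 2670 to 8492 CPM in ibudilast rats, with 3 of 12 genes lower and 0 higher. Oligodendrocyte markers summed to 8398 to 16070 and 16690 to 19970 CPM, with 7 of 16 higher and 0 lower. Lower calls outnumbered higher ones for interneuron (4 of 10 against 1) and astrocyte (4 of 10 against 0) markers. The same held for microglia (6 of 12 against 0) and endothelial (6 of 11 against 0) markers. Ependymal and choroid plexus markers passed for 0 of 12. Over all tested genes, 22.8% fell and 24.3% rose. Astrocyte sums overlapped (7871 to 12230 CPM untreated, 8116 to 9832 CPM ibudilast), and 5 of the 10 genes had a log2 fold change below 0. Interneuron (574 to 1000 and 464 to 597 CPM) and microglia (699 to 1333 and 587 to 710 CPM) sums also overlapped. Endothelial sums did not, at 414 to 791 and 207 to 410 CPM. The part of cell composition in the chaperone results was not tested.

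**Figure D1:**
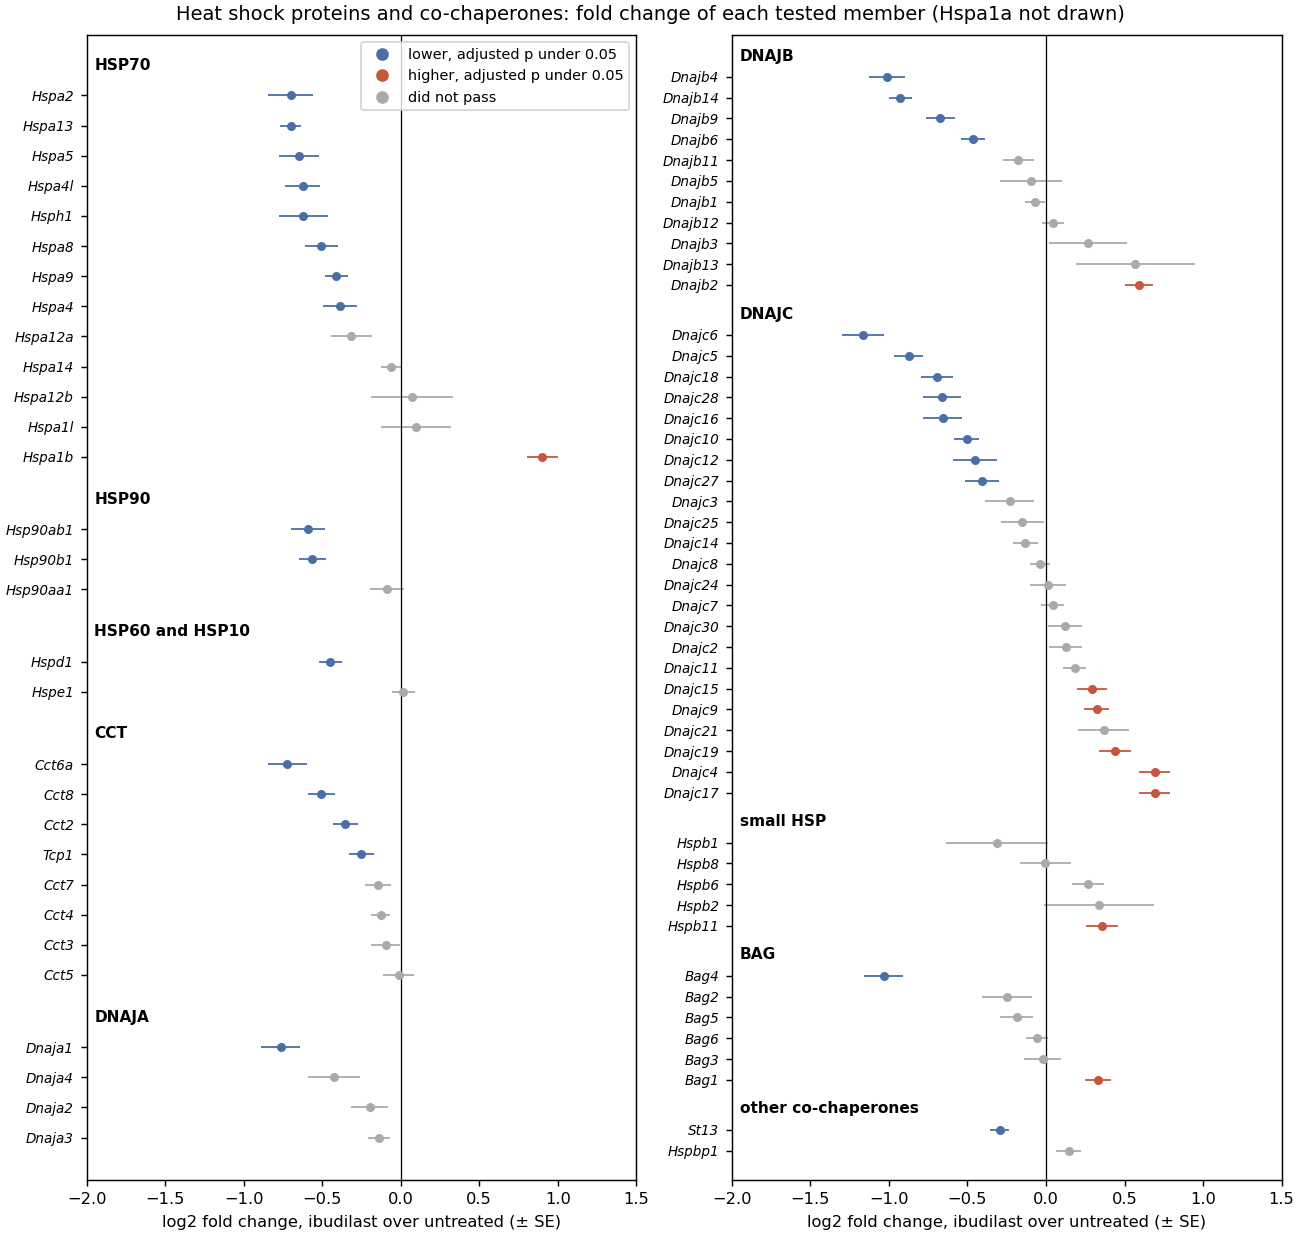
Log2 fold change (x axis, ibudilast over untreated, with its standard error) of each tested member except Hspa1a, which lies off the scale at −6.35, in rows by family. Blue points are lower and red points higher at an adjusted p under 0.05, and grey points did not pass. Most HSP70 points and all CCT points lie left of 0, and DNAJC points lie on both sides.

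In the HSP70 family 9 of 14 tested members fell (64.3%, against 22.8% of all tested genes) and 1 rose (7.14%, against 24.3%). The other 4 did not pass, and the family's median log2 fold change was −0.46. Hspa8 encodes the constitutive cytosolic HSP70, HSC70. It was at 2748, 2593, 2020.5, 2486 and 2638 CPM in untreated replicates 1 to 5 and at 1605, 1739, 1868, 1782 and 1800.4 CPM in ibudilast replicates 1 to 5. All ibudilast rats lay below all untreated rats, with untreated replicate 3 nearest to them. Hspa8 fell by 0.51 ± 0.11 (SE) on the log2 scale, or 29.6% (adjusted p = 0.00275, n = 5 per group).

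The HSP110 genes, whose products exchange nucleotide on HSP70, fell too. Hsph1 went from 358 ± 79.9 to 233 ± 18.9 CPM (SD, n = 5 each; adjusted p = 0.00754), but untreated replicate 3, at 224 CPM, lay within the ibudilast range of 205 to 257 CPM. Hspa4 overlapped in the same way, with 219 CPM in that rat against 212 to 240.2 CPM with ibudilast (log2 fold change −0.39, adjusted p = 0.0140). Its call was lost with the replicate number as a block (adjusted p = 0.0539). Hspa4l did not overlap, at 92.8 to 131 CPM in untreated and 65.2 to 87.9 CPM in ibudilast rats. Hspa2, a family member best known from the testis, fell from 41.7 ± 6.07 to 25.7 ± 4.72 CPM and was highest in untreated replicate 3, at 50.3 CPM. Its groups did not overlap.

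Of the remaining HSP70 members, Hspa14 was at 20.9 ± 0.894 and 20.1 ± 1.04 CPM and Hspa1l, expressed mainly in the testis, at 3.29 ± 0.751 and 3.52 ± 0.828 CPM. Hspa12a, at −0.31 (adjusted p = 0.0712), did not pass with all rats but did without untreated replicate 2 (0.0429), without untreated replicate 3 (0.0279) and without ibudilast replicate 3 (0.0494). Hspa12b, a gene of endothelial cells, was at 24.5 CPM in untreated replicate 3 and 19.7 CPM in ibudilast replicate 4, and at 9.197 to 13.3 CPM in the other 8 rats. Those 2 libraries also had the highest endothelial marker sum of their groups, 791 and 410 CPM.

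Hspa1a and Hspa1b encode the stress-inducible HSP70, and their transcripts are so alike that reads can be split between them. Hspa1a was estimated at 35.6, 36.3, 11.99, 21.5 and 20.3 CPM in the untreated rats and at 0, 0.238, 0, 0.591 and 0.637 CPM in the ibudilast rats. Hspa1b was at 14.97, 18.48, 15.7, 14.5 and 13.2 CPM and at 30.4, 27.9, 29.2, 25.6 and 30.6 CPM. Neither copy overlapped between the groups, and they moved in opposite directions (log2 fold changes −6.35 and 0.90). Of the counts given to the pair, Hspa1a took 43.3% to 70.4% in untreated and 0% to 2.26% in ibudilast rats. Whether this split comes from the reads or from how they were assigned to the 2 transcripts was not tested, so the values of each copy, and their calls among the 31 falls and 9 rises, are uncertain. Estimated counts were not whole in 8 libraries for Hspa1a and in all 10 for Hspa1b, as for a gene whose reads are shared out among transcripts.

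The sum Hspa1a plus Hspa1b is free of the split between the 2 copies. Hspa1l overlaps Hspa1a and also had counts that were not whole, and reads shared with it were not examined. The sum was 50.6, 54.7, 27.7, 36.0 and 33.5 CPM in the untreated rats. In the ibudilast rats it was 30.4, 28.1, 29.2, 26.2 and 31.3 CPM. The groups overlapped: untreated replicate 3 lay inside the ibudilast range, and untreated replicates 1 and 2 were the highest. The mean fell by 11.5 CPM, from 40.5 ± 11.6 to 29.0 ± 1.996 CPM (exact permutation test over all assignments of the rats, two-sided, p = 0.0476). With the 2 rows added before fitting, edgeR gave a log2 fold change of −0.48 ± 0.17 (adjusted p = 0.0402). The exact test did not pass without untreated replicate 1 (p = 0.0556) or 2 (p = 0.0635), without any 1 of the ibudilast rats (p = 0.0952 to 0.135, exact) or with library size alone (p = 0.127, exact). Without both copies, 30 members fell and 8 rose among the 76 tested that remain.

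**Figure D2:**
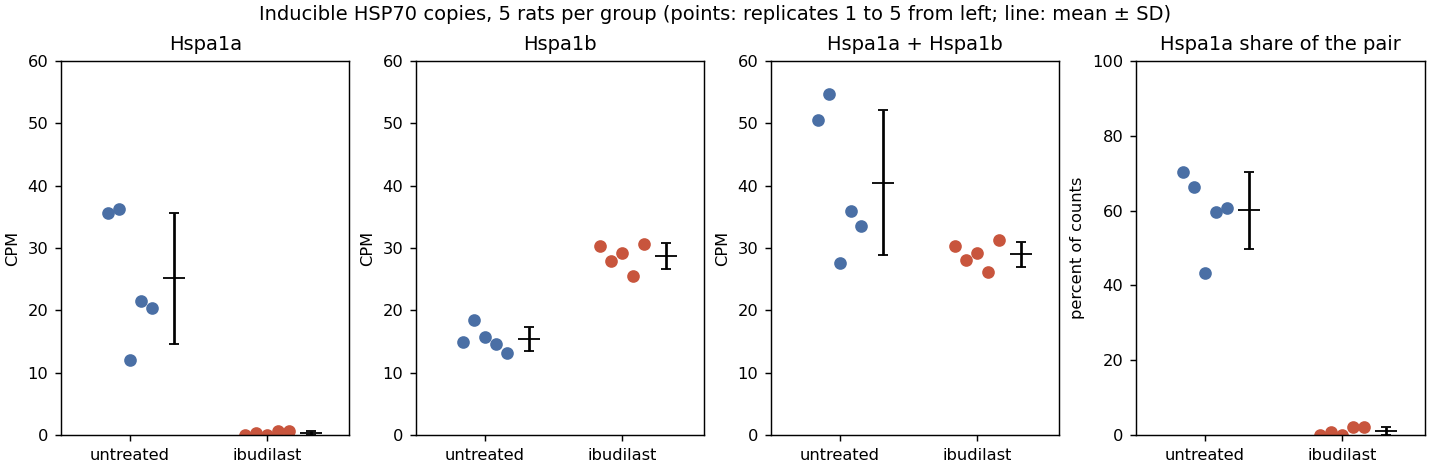
CPM of Hspa1a, Hspa1b and their sum, and the percent of the pair's counts given to Hspa1a (y axes), in 5 untreated (blue) and 5 ibudilast (red) rats, with mean and SD in black. Each copy parts the groups while the sum overlaps, with 27.7 CPM in untreated replicate 3 against 26.2 to 31.3 CPM with ibudilast.

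Among the 3 HSP90 genes, 2 fell (66.7%, against 22.8% of all tested genes) and 1 did not pass. Hsp90ab1, the constitutive cytosolic form, was at 1979.7, 1898, 1597, 1829 and 1985 CPM in untreated and 1168, 1314, 1334, 1021 and 1329.8 CPM in ibudilast rats (log2 fold change −0.59 ± 0.11, adjusted p = 0.00136). The groups did not overlap. Hsp90aa1, the cytosolic form that stress induces further, was at 2152, 1848, 1574, 2012 and 1964 CPM and at 1625, 1707, 2018, 1775 and 1853 CPM (−0.09 ± 0.11, adjusted p = 0.534), and its groups overlapped over most of their range. Within each library the ratio of Hsp90aa1 to Hsp90ab1 counts, which does not depend on scaling, was 0.974 to 1.1 in untreated and 1.30 to 1.74 in ibudilast rats. This ratio and those below were chosen after the values were seen and carry no test.

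In mitochondria, the values of a chaperone gene pair were unlike. Hspd1 encodes HSP60 and Hspe1 its lid, HSP10, and the genes lie head to head. Hspd1 was at 240.3, 214, 192, 229 and 212 CPM in untreated and 159, 153, 169, 155 and 161 CPM in ibudilast rats, without overlap (−0.45 ± 0.07, adjusted p = 6.47e-04). Hspe1 was at 64.0, 56.5, 55.5, 59.4 and 60.1 CPM and at 57.5, 58.3, 68.3, 54.8 and 60.02 CPM (0.02 ± 0.07, adjusted p = 0.880). The ratio of Hspe1 to Hspd1 counts was 0.259 to 0.290 in untreated and 0.354 to 0.403 in ibudilast rats. Hspa9, the matrix HSP70, fell from 225 ± 20.2 to 169 ± 5.11 CPM. Over the 10 members assigned to mitochondria, 3 fell (Hspd1, Hspa9 and Dnajc28), 3 rose (Dnajc4, Dnajc15 and Dnajc19) and 4 did not pass. Those shares, 30% lower and 30% higher, compare with 22.8% and 24.3% of all tested genes.

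**Figure D3:**
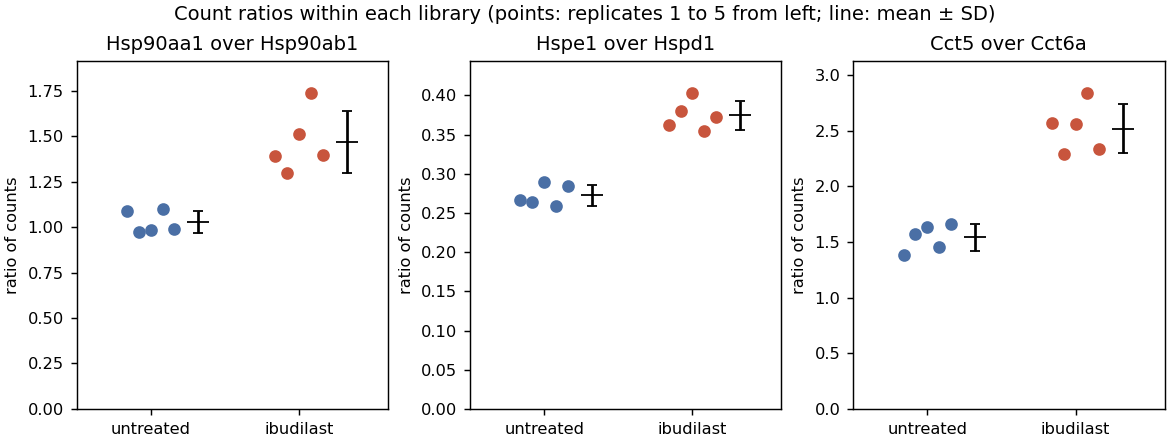
Ratio of the counts of 2 genes within each library (y axes), for Hsp90aa1 over Hsp90ab1, Hspe1 over Hspd1 and Cct5 over Cct6a, in 5 untreated (blue) and 5 ibudilast (red) rats with mean and SD in black. In all 3 panels every ibudilast rat lies above every untreated rat, and the pairs were chosen after their values were seen.

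Promoter sequences were taken from RefSeq (rat build GRCr8), which held 70 of the 88 members, as 250 bases before to 50 after each gene's start. The heat shock element, the site HSF1 binds, was searched on both strands as 3 alternating units, GAANNTTCNNGAA or TTCNNGAANNTTC. It was present in 6 of the 70 member promoters (8.57%) and in 0.798% of 33469 promoters of the same length. The 6 were those of Hspa8, Hsph1, Hspd1 and Dnaja1, which fell, and Hspe1 and Cct4, which did not pass. The Hspd1 and Hspe1 elements are the same bases, counted for both genes. The shorter form of 2 units, GAANNTTC or TTCNNGAA, which every 3-unit match also contains, was in 20 members (28.6%) against 15.9% of all promoters. It was in 11 of the 27 member promoters whose genes fell, 0 of the 6 whose genes rose and 8 of the 30 whose genes did not pass. Some of the 31 falls and 9 rises had no promoter here, and 6 promoters of rises are too few to compare. A link between the element and the direction of change was not tested.

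The 250 bases before the start are shown for 3 of these, because the members they serve fell (Hspa8, Hsph1) or had unlike values beside a shared promoter (Hspe1, whose window has 211 bases in common with that of Hspd1 on the opposite strand). Capitals mark heat shock elements of 2 or more units.
Hspa8, chr8:50080264-50080513, plus strand: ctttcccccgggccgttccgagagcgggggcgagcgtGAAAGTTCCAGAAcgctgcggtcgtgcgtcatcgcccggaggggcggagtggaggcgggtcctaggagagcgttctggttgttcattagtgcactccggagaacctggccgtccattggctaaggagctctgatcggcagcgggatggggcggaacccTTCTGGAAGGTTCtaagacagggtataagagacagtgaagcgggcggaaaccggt
Hsph1, chr12:10427118-10427367, plus strand: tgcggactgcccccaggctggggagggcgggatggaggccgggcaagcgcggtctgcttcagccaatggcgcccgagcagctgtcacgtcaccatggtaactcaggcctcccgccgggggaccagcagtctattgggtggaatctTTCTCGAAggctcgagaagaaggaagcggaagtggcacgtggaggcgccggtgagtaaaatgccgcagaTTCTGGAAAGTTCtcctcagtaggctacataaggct
Hspe1, chr9:64084077-64084326, plus strand: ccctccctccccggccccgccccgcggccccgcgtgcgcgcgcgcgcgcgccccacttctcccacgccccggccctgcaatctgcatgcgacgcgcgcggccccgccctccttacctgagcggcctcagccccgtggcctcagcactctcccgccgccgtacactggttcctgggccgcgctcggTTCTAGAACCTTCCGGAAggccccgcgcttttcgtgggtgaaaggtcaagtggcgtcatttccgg
In Hspa8 the 3-unit elements begin 213 and 55 bases before the start, and in Hsph1 36 bases before it. In the Hspe1 window overlapping 3-unit elements begin 65 and 60 bases before its start, and the same bases are read 242 and 237 bases before the Hspd1 start. A match describes the letters in this window and not binding in these rats.

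Of the 12 members assigned to the endoplasmic reticulum, 8 fell (66.7%, against 22.8% of all tested genes), 0 rose and 4 did not pass, with a median log2 fold change of −0.61. Hspa5 encodes BiP, the HSP70 of that compartment. It was at 431, 515, 319, 397 and 372 CPM in untreated and 300.3, 234, 259.9, 250.4 and 251 CPM in ibudilast rats (−0.65 ± 0.13, adjusted p = 0.00184). The groups did not overlap, and the highest value of each group was in the library with choroid plexus markers, untreated replicate 2 and ibudilast replicate 1. Hsp90b1, the HSP90 of the same compartment (GRP94), was at 477, 541, 417, 478 and 456 CPM and at 348, 318, 329.9, 294 and 313 CPM (−0.56 ± 0.09, adjusted p = 4.60e-04). Its highest values lay in the same 2 libraries, again without overlap between the groups. Hspa13, an HSP70-like protein of microsomes, was at 40.8 to 45.9 CPM in untreated and 23.9 to 28.4 CPM in ibudilast rats (−0.70 ± 0.07, adjusted p = 3.61e-05).

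Among the J-domain proteins of that compartment, Dnajb9 (ERdj4), a cofactor of BiP, fell from 39.5 ± 4.97 to 24.8 ± 1.76 CPM, Dnajb14 from 23.1 ± 1.14 to 12.1 ± 0.815 CPM and Dnajc10 (ERdj5), a disulfide reductase, from 151 ± 16.4 to 106 ± 4.26 CPM. Dnajc16 and Dnajc18 fell by 0.66 and 0.69 on the log2 scale. Dnajb11 (ERdj3) was at 56.7 ± 7.24 and 50.2 ± 4.34 CPM (adjusted p = 0.172), Dnajc3 (p58IPK) at 21.5 ± 4.65 and 18.3 ± 3.04 CPM (0.252) and Dnajb12 at 60.4 ± 4.43 and 62.3 ± 3.84 CPM (0.633). Dnajc25 did not pass either.

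The endoplasmic reticulum stress element, through which ATF6 acts, was searched as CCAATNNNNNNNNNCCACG on both strands. It was found in the promoters of Hspa5, Hsp90b1 and Dnajc3, 3 of 70 (4.29%), against 0.0657% of all 33469. The 250 bases before the start of the first 2, which fell, are given with the element in capitals.
Hspa5, chr3:38452766-38453015, plus strand: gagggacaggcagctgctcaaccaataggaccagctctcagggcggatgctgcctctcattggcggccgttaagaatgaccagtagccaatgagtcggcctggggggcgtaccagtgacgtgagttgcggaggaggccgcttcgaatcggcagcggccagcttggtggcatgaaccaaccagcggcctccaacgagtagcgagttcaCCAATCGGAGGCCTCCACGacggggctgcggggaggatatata
Hsp90b1, chr7:23012294-23012543, minus strand: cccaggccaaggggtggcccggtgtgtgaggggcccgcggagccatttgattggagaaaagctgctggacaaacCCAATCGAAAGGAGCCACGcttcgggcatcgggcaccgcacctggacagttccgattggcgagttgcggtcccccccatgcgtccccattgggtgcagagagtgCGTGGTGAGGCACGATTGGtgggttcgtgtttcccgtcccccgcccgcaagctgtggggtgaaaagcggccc
The Hspa5 element begins 43 bases before the start. Those of Hsp90b1 begin 176 bases before it and, on the opposite strand, 72 bases before it.

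Of the 38 tested DNAJ genes, 13 fell (34.2%, against 22.8% of all tested genes), 6 rose (15.8%, against 24.3%) and 19 did not pass. In the DNAJA family 1 of 4 fell (25%), near the share of all tested genes. Dnaja1, a cytosolic partner of Hspa8, was at 244, 218, 155, 231 and 217 CPM in untreated and 134, 125, 138, 103 and 128 CPM in ibudilast rats (−0.76 ± 0.13, adjusted p = 6.91e-04). Dnaja4 was at −0.43 (adjusted p = 0.0540). Untreated replicate 3 was again the lowest of its group in all 4 genes, and without it all 4 fell.

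In the DNAJB family 4 of 11 fell (36.4%, against 22.8% of all tested genes) and 1 rose (9.09%, against 24.3%). Dnajb4 was at 49.8, 45.4, 33.6, 49.8 and 45.5 CPM in untreated and 24.4, 24.5, 19.8, 20.2 and 22.2 CPM in ibudilast rats (−1.01 ± 0.12, adjusted p = 8.98e-05), with a wide gap between the groups. Dnajb6, a suppressor of polyglutamine aggregation, fell from 98.6 ± 9.32 to 71.4 ± 3.61 CPM. Dnajb2, a neuronal J-domain protein that delivers clients to the proteasome, rose from 112, 106, 125, 129 and 124 CPM to 154, 190.0, 176, 205 and 175 CPM (0.59 ± 0.09, adjusted p = 4.22e-04). Dnajb1, the classical heat-inducible HSP40, was at 59.5 ± 3.43 and 56.7 ± 3.33 CPM (adjusted p = 0.399), and its groups overlapped. Dnajb13, known from motile cilia and sperm, was at 8.93 CPM in untreated replicate 3 and 12.1 CPM in ibudilast replicate 4, against 21.3 to 44.8 CPM in the other 8.

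In the DNAJC family, 8 of 23 fell (34.8%, against 22.8% of all tested genes) and 5 rose (21.7%, near the 24.3% of all tested genes). Both tested members of the synaptic vesicle and clathrin group fell. Dnajc6 encodes auxilin, which recruits Hspa8 to uncoat clathrin vesicles in neurons. It was at 506, 372, 354, 469.7 and 424 CPM in untreated and 167, 206, 215, 152 and 211 CPM in ibudilast rats, a fall of 55.3% without overlap (−1.16 ± 0.13, adjusted p = 9.32e-05). Dnajc5, cysteine string protein, keeps presynaptic SNARE proteins folded together with Hspa8. It was at 77.0, 60.2, 61.7, 69.0 and 62.2 CPM and at 33.2, 41.1, 37.1, 31.95 and 36.8 CPM (−0.87 ± 0.09, adjusted p = 6.03e-05), again without overlap. The ratio of Dnajc5 to Hspa8 counts was 0.0232 to 0.0306 in untreated and 0.0179 to 0.0237 in ibudilast rats, ranges that just overlapped.

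Among the 5 DNAJC genes that rose, Dnajc17, a nuclear protein linked to splicing, went from 7.66 ± 0.786 to 12.4 ± 0.733 CPM (0.69 ± 0.10, adjusted p = 2.86e-04) and Dnajc4 from 16.4 ± 1.73 to 26.4 ± 2.89 CPM (0.69 ± 0.10, adjusted p = 3.45e-04), both without overlap. Dnajc19, of the mitochondrial import motor, rose from 15.4 ± 0.930 to 20.8 ± 2.85 CPM, and Dnajc9, a histone chaperone, from 25.7 ± 1.51 to 32.1 ± 3.19 CPM. Dnajc15, an inner membrane protein of mitochondria, was at 0.29 (adjusted p = 0.0267). That call was lost without untreated replicate 1, 4 or 5 or ibudilast replicate 3 or 5 (adjusted p = 0.0505 to 0.0658). Among the falls, Dnajc12, at −0.45 (adjusted p = 0.0228), lost its call without untreated replicate 4 or 5 or ibudilast replicate 2 or 5 (0.0504 to 0.0578) and with library size alone (0.0936).

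**Figure D4:**
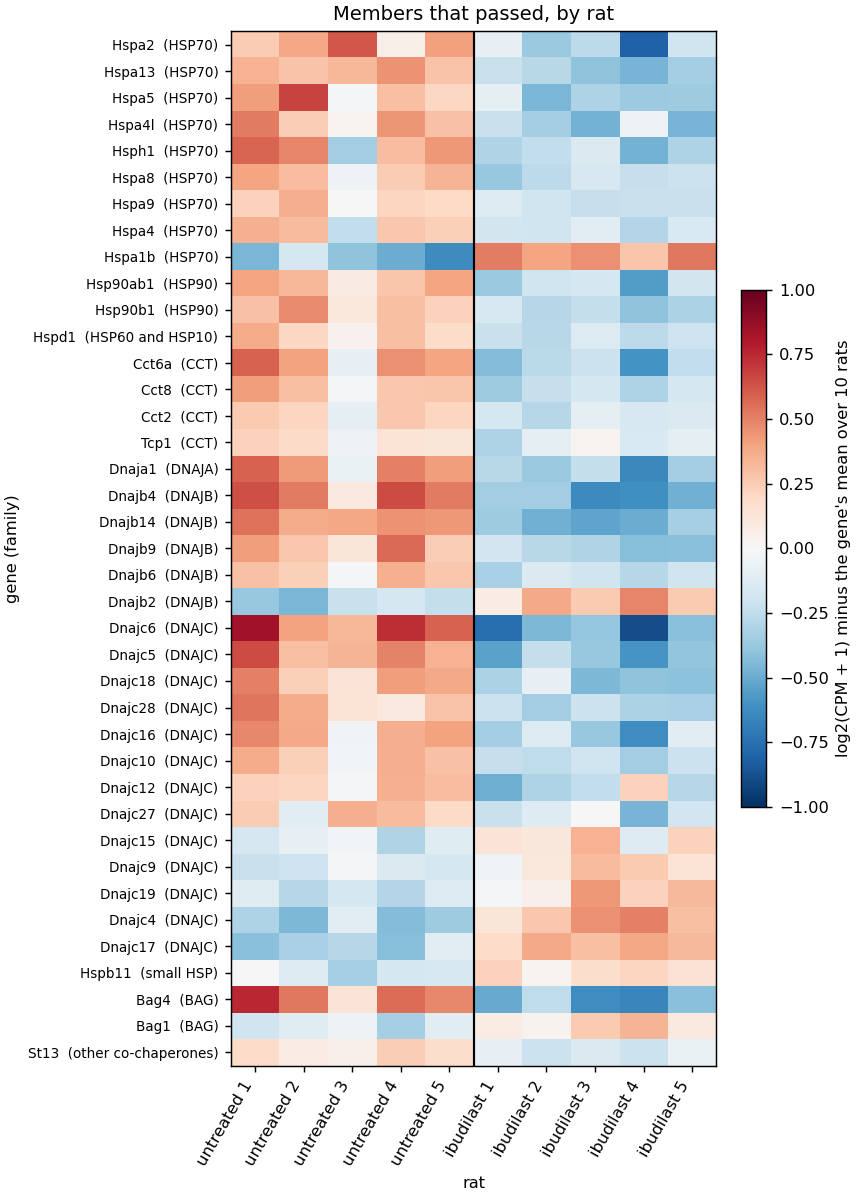
Level of each called member except Hspa1a in each rat, as log2(CPM + 1) minus the gene's mean over the 10 rats (colour), with families named beside the genes and a line between the groups. Red cells are above the mean and blue below. The column of untreated replicate 3 is paler than the other untreated columns for most genes.

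Subunits of the CCT chaperonin, which the ring needs in equal number, had unequal log2 fold changes. All 8 tested subunits had a log2 fold change below 0. Of them 4 fell (50%, against 22.8% of all tested genes) and 4 did not pass. Cct6a was at 149, 131, 93.1, 136 and 129.8 CPM in untreated and 72.6, 81.7, 84.6, 64.9 and 83.1 CPM in ibudilast rats (−0.72 ± 0.12, adjusted p = 9.09e-04), without overlap. Cct8 fell by 0.50 ± 0.08 and Cct2 by 0.35 ± 0.08 on the log2 scale, and for Cct2 the groups touched, at 123.2 CPM in untreated replicate 3 and 123.1 CPM in ibudilast replicate 3. Tcp1 was at −0.25 (adjusted p = 0.0223), a call lost without untreated replicate 1 (0.0572), with library size alone (0.110) and with a replicate block (0.0923). Cct5 was at 195 ± 24.9 and 194 ± 13.1 CPM (adjusted p = 0.928). The ratio of Cct5 to Cct6a counts was 1.38 to 1.66 in untreated and 2.29 to 2.84 in ibudilast rats. Untreated replicate 3 was lowest in its group for all 8, and without it 7 CCT genes fell.

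Small HSPs hold unfolded proteins without ATP. Of the 5 tested members, 0 fell, against 22.8% of all tested genes, and 1 rose (20%, against 24.3%). That member, Hspb11, is named with the family but is also known as a subunit of intraflagellar transport. It was at 8.05, 7.21, 6.18, 6.98 and 7.10 CPM in untreated and 9.62, 8.21, 9.21, 9.51 and 8.97 CPM in ibudilast rats (0.36 ± 0.10, adjusted p = 0.0149), without overlap. The call was lost without the 4 libraries that stood apart (0.25, adjusted p = 0.121) and with a replicate block (0.0576). Hspb6 was at 29.9 ± 4.57 and 36.0 ± 2.11 CPM (adjusted p = 0.0534). Hspb8, a partner of Bag3 in selective autophagy, was at 35.4 ± 6.68 and 35.3 ± 7.14 CPM. Hspb1 (HSP27) was at 11.99 ± 3.55 and 9.65 ± 4.79 CPM, with 17.7 CPM in untreated replicate 2, 13.1 CPM in ibudilast replicate 1 and 16.4 CPM in ibudilast replicate 4, while the other 7 rats did not exceed 11.99 CPM. Without the 4 libraries that stood apart it fell (adjusted p = 0.00584). Cryab, a small HSP of the lens crystallin type outside the symbol rule, rose from 56.8 ± 14.7 to 102 ± 34.1 CPM (adjusted p = 0.0142). Its groups overlapped, with 76.5 CPM in untreated replicate 4 and 74.4 CPM in ibudilast replicate 3. The highest value, 153.2 CPM, was in ibudilast replicate 4, which stood apart.

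Of the 6 co-chaperones of the BAG family, which release clients from HSP70, 1 fell, 1 rose and 4 did not pass. The share called, 33.3%, was below the 47.1% of all tested genes. Bag4 was at 37.1, 31.5, 23.8, 32.3 and 30.6 CPM in untreated and 14.9, 18.0, 13.7, 13.3 and 15.9 CPM in ibudilast rats (−1.03 ± 0.12, adjusted p = 1.17e-04), without overlap. Bag1 was at 47.3 to 57.8 CPM in untreated and 61.2 to 76.1 CPM in ibudilast rats (0.33 ± 0.08, adjusted p = 0.00693). Bag3, induced by HSF1 and active in autophagy of aggregates, was at 25.3 ± 2.07 and 24.9 ± 4.60 CPM (adjusted p = 0.899). Bag2, Bag5 and Bag6 did not pass. St13, which stabilises the ADP state of HSP70, fell from 125 ± 7.14 to 102 ± 5.11 CPM without overlap (adjusted p = 0.00292), and Hspbp1, an exchange factor, was at 82.9 ± 4.47 and 91.6 ± 8.95 CPM (adjusted p = 0.150).

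Summed over all members of a family, HSP70 transcripts were at 4811, 4614, 3474, 4317 and 4495 CPM in untreated and 2926, 3019, 3237, 3033 and 3115 CPM in ibudilast rats. These sums did not overlap, nor did those of the DNAJC family (1491 ± 107 and 1130 ± 88.8 CPM) and of HSP60 with HSP10 (277 ± 21.4 and 219 ± 11.2 CPM). The sums of HSP90 (4241 ± 386 and 3350 ± 246 CPM), CCT, DNAJA, DNAJB, BAG and small HSPs overlapped. A sum is led by its highest members, Hspa8 in the case of HSP70, and carries no test.

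Regulator genes and other folding genes around these families were read against the same shares of all tested genes, 22.8% lower and 24.3% higher. Hsf1, the main heat shock factor, was at 27.0, 28.4, 32.3, 24.4 and 27.6 CPM in untreated and 45.5, 52.6, 52.0, 53.6 and 48.3 CPM in ibudilast rats, a rise without overlap (0.85 ± 0.08, adjusted p = 3.89e-05). Hsf2 was at −0.37 (adjusted p = 0.0658) and Hsbp1, an HSF1 binding protein, at 0.03 (0.821). Hsf4 was called higher (adjusted p = 0.0367), with 25.6 CPM in ibudilast replicate 4 against 3.88 to 5.42 CPM in the other ibudilast rats and 2.56 to 3.69 CPM in untreated rats. Of 21 HSP90 co-chaperones and related genes, 4 fell, 5 rose and 12 did not pass, shares of 19.0% and 23.8% that were near those of the whole table, and without untreated replicate 3 8 fell and 4 rose. Ahsa2, a relative of the HSP90 activator Ahsa1, rose from 30.2 ± 1.67 to 56.2 ± 4.05 CPM, Unc45a, a myosin chaperone, by a log2 fold change of 0.53, and Stub1, a ubiquitin ligase for HSP70 clients, from 151 ± 7.77 to 198 ± 19.1 CPM. Hyou1, an HSP70 relative of the endoplasmic reticulum, fell from 157 ± 13.3 to 114 ± 2.68 CPM. Stip1, the adaptor between HSP70 and HSP90, was at 191 ± 20.5 and 173 ± 12.3 CPM (adjusted p = 0.204).

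Among 21 measured genes of endoplasmic reticulum folding and the unfolded protein response, 9 fell (42.9%), 1 rose (4.76%) and 11 did not pass. Sel1l, of the degradation complex, fell from 129.1 to 72.8 CPM on average, Canx, the lectin chaperone calnexin, from 700.2 ± 72.9 to 465 ± 34.8 CPM, and Atf6, a sensor of folding stress, by 0.66 on the log2 scale. Ddit3 (CHOP), a transcription factor of prolonged stress, was the member that rose, from 25.0 ± 1.31 to 34.5 ± 4.30 CPM, while Xbp1 and Atf4 did not pass. Of 13 measured prefoldin and tubulin cofactor genes, which work with CCT, 5 rose (38.5%), 2 fell (15.4%) and 6 did not pass. Tbce, Pfdn1 and Pfdn5 rose by log2 fold changes of 0.44, 0.59 and 0.62. Of 11 mitochondrial folding and protease genes, 5 rose (45.5%), 2 fell (18.2%) and 4 did not pass. Pam16, of the import motor, rose by a log2 fold change of 0.68 and Timm44, which tethers Hspa9 at the import channel, by 0.44, while Yme1l1, a membrane protease, fell by 0.83. Activity-dependent immediate early genes, which neuronal firing induces, were lower for 12 of 19 (63.2%, against 22.8% of all tested genes). Higher calls numbered 0, against 24.3% of all tested genes. Their sums were 731 to 1176 CPM in untreated and 468 to 715 CPM in ibudilast rats.

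Low or shared counts limit some members. The 10 members that were not tested (Cct6b, Cct8l1, Dnajb7, Dnajb8, Dnajc22, Dnajc5b, Dnajc5g, Hspb3, Hspb7 and Hspb9) had at most 108 counts each over all 10 libraries. Counts that were not whole also occurred for Hspa1l, Dnajb13, Dnajc19 and Cct8 in all 10 libraries and for Bag4 and Dnajb9 in some. In the RefSeq annotation of GRCr8, 23 of 86 matched members overlap another coding gene, 8 of them among the falls (Bag4, Cct8, Tcp1, Dnajc28, Dnajc16, Dnajc27, Hspd1 and Hspa1a) and 3 among the rises (Dnajc17, Dnajc19 and Dnajc9). The library kit keeps strand, but whether the counting used it is not given in the sources used here, so the values of overlapping genes are uncertain.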

How the data were processed

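Stranded mRNA libraries were made from column-purified RNA, per the labels' protocols, 1 per rat. The authors deposited expected counts per gene symbol, not normalized, and a normalized signal in which counts were divided by TMM-scaled library sizes. Per the submitters' processing notes, bcl2fastq, Bowtie2 2.1.0, RSEM 1.2.15, edgeR and rn6 were used. Their roles and the annotation are not given in the sources used here. About 12% of the expected counts were not whole, and all were rounded. The table has 17168 rows, 0 without a name and 2 with a repeated symbol. All 20 sample columns matched a title.

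Testing used edgeR 4.0.16 (limma 3.58.1, R 4.3.3): filterByExpr, TMM factors, robust quasi-likelihood F tests and Benjamini-Hochberg adjustment over 12355 genes at 0.05. SEs are the log2 fold change divided by the root of F. Single values were tested by exact permutation (smallest p for 5 against 5, 0.00794). The fit was also run on simulated data in which far fewer genes changed than were called here. That run cannot show the error rate in these data. No 2 libraries of a group agreed within sampling noise (lowest chi-square per gene 11.3). The design text counts 5 rats per group. The fit was repeated with RLE factors, with upper-quartile factors, with library size alone, and with DESeq2 1.42.0, limma-voom, limma-trend on log2(signal + 1), no filter, 10 counts in 5 libraries, a replicate block, the Hspa1 copies added, and each rat left out, and, chosen after seeing the data, without the 4 libraries that stood apart and on reads recovered from the signal (100% whole within 0.01).

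The members and lists were chosen with earlier results of these data known. Members were named by rule if among the 3 of their family with the smallest p, highest in mean CPM, called against their family's direction, or Hspa1a or Hspa1b. For some of these the mean or range stands in place of values per rat, and other members and genes with values were chosen after these were seen. Compartments were assigned from general knowledge. From the other folding lists the 3 genes with the smallest p were named, and further genes such as Stub1 and Ddit3 were added outside that rule. No gene was named from the cell type marker and immediate early gene lists. Some list symbols were not found in the table, and these genes were not analysed here.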

Additional observations from a re-analysis of the deposited data

Results flagged for a closer look

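Among the 36 members named by rule and the Hspa1 sum, 74 groups of 5 rats were examined for a rat far from the others, and 5 had one, where chance gives about 1 in 20 groups. In 4 of the 5 it was untreated replicate 3, each time the lowest: Cct2 at 123 CPM (others 153 to 159), Dnaja4 at 69.1 CPM (others 107 to 116), Dnaja3 at 53.9 CPM (others 64.6 to 66.8) and Dnajb4 at 33.6 CPM (others 45.4 to 49.8). The other was Bag6 in untreated replicate 4, at 258 CPM against 282 to 287 CPM. The number flagged was near the chance rate, and the same rats recur for every gene, so the flags are not independent.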

How the results depend on the processing

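The chaperone members lower numbered 29 to 40 and the chaperone members higher 8 to 13 over all alternatives, each within 1.5 times the values reported, and 35 of 40 called members kept call and direction throughout. The exceptions were Tcp1, Dnajc12, Dnajc15, Hspa4 and Hspb11. No called member changed direction. Over the whole table, genes higher numbered 2497 to 3483 and genes lower 2229 to 3374. Reads recovered from the authors' signal gave the reported 3004 and 2813. Those reads were scaled with the counts themselves, so this agreement is no independent check. Library size alone moved the median of all genes to 0.09 and gave 3410 higher and 2297 lower.

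Hspa1a plus Hspa1b, at −11.5 CPM, was at −10.2 CPM with library size alone (exact p = 0.127) and −10.55 CPM without the 4 libraries that stood apart (exact p = 0.1, the smallest that 3 against 3 allows). Paired by replicate number as a block, it was at −11.5 CPM (exact sign-flip p = 0.125, where 5 pairs cannot go below 0.0625). Leaving out 1 rat gave −14.7 to −7.94 CPM. The Bag6 log2 fold change was at 0.010 with library size alone and 0.0326 without the 4 libraries. The Hspb8 log2 fold change was at 0.0480 with upper-quartile factors and 0.0697 with library size alone, and ranged from −0.116 to 0.0653 with 1 rat left out. The replicate block gave 29 members lower and 8 higher. Same-numbered rats deviated together in 1 of 5 pairs (correlations −0.328 to 0.416), which gave little sign of pairing by number. Whether the numbers pair the rats cannot be decided this way, because the 4 libraries that stood apart all carry different numbers.

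Some small counts moved by over 1.5 times. DNAJA falls went from 1 to 2 with RLE, DESeq2 and no filter and to 3 without the 4 libraries. Rises of HSP90 co-chaperones went from 5 to 3 with no filter and with the replicate block, and falls from 4 to 7 without the 4 libraries. Falls of mitochondrial folding genes went from 2 to 1 with upper-quartile factors, library size alone and the replicate block. Rises of heat shock factors went from 2 to 1 with DESeq2, limma-voom, limma-trend and the replicate block. Small HSP rises were 0 with the replicate block and 2 with upper-quartile factors, library size alone and limma-voom. Causes were not tested.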
